A study of Rattus norvegicus with 325 samples.

Results

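Ageing changes of gene expression were compared between 2 hindlimb muscles of the rat, the soleus and the tibialis anterior. For each gene the change from 6 to 27 months of age was taken in each muscle, and the soleus change was subtracted from the tibialis change. The comparison asks whether these muscles age alike. The resulting value, called the difference between muscles in the 27-month change, is given in log2 units, and a positive value means that the gene rose more, or fell less, in the tibialis. The comparison used 48 of the 325 libraries of the series, 12 for each muscle at each of these ages, and tested 11882 genes.

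All 4 groups were untreated male Sprague Dawley rats, an outbred stock, kept under specific pathogen free conditions: soleus at 6 months, soleus at 27 months, tibialis anterior at 6 months and tibialis anterior at 27 months. Whole muscle was kept in RNAlater, so every library holds the RNA of all its cell types, and in bulk RNA fewer cells of a type cannot be told apart from less RNA per cell. The muscles of 1 age group were collected on 1 day, and age therefore cannot be told apart from the day of collection, which both muscles of an age share. The labels do not say which animal a library came from, and p-values therefore measure the spread between these libraries.

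The soleus is a postural muscle built mainly of slow, oxidative fibres, and the tibialis anterior lifts the foot and is built mainly of fast, glycolytic fibres. Motor nerves set much of this fibre character, and a fibre that loses its nerve brings back an embryonic programme, with acetylcholine receptor subunits made along the whole fibre and the myogenic factor myogenin switched on, until another axon takes it over. In old muscle, loss and regrowth of nerve endings and a mixing of fibre types are both well known, and fast muscles are commonly described as the more strongly affected.

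Library totals lay between 21353396 and 66121880 counts. Fibre type markers separated the labelled muscles: Myh7, the slow myosin heavy chain, lay between 14.16 and 15.81 log2 CPM (counts relative to the library total, as a log2) in the soleus and between 7.57 and 12.19 in the tibialis, and Myh4, the fastest myosin heavy chain, between 2.19 and 8.34 in the soleus and between 13.59 and 16.63 in the tibialis. The 27-month libraries numbered 9 stood apart in both muscles: along the mean ageing change of 8713 genes they had moved 30.3% of the way in the soleus, where the next lowest library had moved 77.2%, and 49.6% of the way in the tibialis, where the next lowest had also moved 77.2%. Alb, the liver's albumin, exceeded 8 log2 CPM in 5 libraries, 2 of the 6-month soleus, 2 of the 27-month soleus and number 9 of the 27-month tibialis. In the other libraries it lay between 1.98 and 7.76 in the 6-month soleus and between -0.90 and 2.57 in the 27-month soleus. In the tibialis it lay between -6.04 and -3.27 at 6 months and between -4.51 and 1.585 in the rest at 27 months. Leaving out the libraries over 8 therefore does not remove this difference between the groups. The 10 most abundant genes took 27.5% to 29.3% of all counts in the 6-month tibialis, 17.5% to 27.4% in the 27-month tibialis, 19.4% to 21.0% in the 6-month soleus and 12.2% to 20.1% in the 27-month soleus.

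Of the 11882 genes tested, 1749 (14.7%) differed between the muscles in their 27-month change, at a Benjamini-Hochberg adjusted p under 0.05 and a difference over 1.5-fold in limma. These genes are said to be called below. The difference was positive for 1071 (9.01% of those tested) and negative for 678 (5.71%), it exceeded 2-fold for 737, and it exceeded 4-fold for 132 positive and 55 negative genes. Over all genes tested the median difference was 0.01. Scaling to total counts in place of trimmed means moved the median of the difference between muscles in the 27-month change to 0.18 and gave 1674 positive and 397 negative genes, 80.8% positive against 61.2%. Leaving out the 27-month libraries numbered 9 gave 1140 positive and 743 negative genes, and leaving out the libraries rich in Alb gave 1219 and 725. In the tibialis 3181 genes (26.8%) changed from 6 to 27 months, 1958 up (16.5%) and 1223 down (10.3%), and in the soleus 1813 (15.3%), 1101 up (9.27%) and 712 down (5.99%).

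Most of the positive genes were genes that rose in the tibialis. In 588 of the 1071 the tibialis rose with no call in the soleus, in 179 both muscles rose and the tibialis rose further, in 130 the soleus fell with no call in the tibialis, in 25 the tibialis rose and the soleus fell, in 6 both fell, and in 143 neither change was called by itself. Of the 678 negative genes, 389 fell in the tibialis with no call in the soleus, 105 rose in the soleus with no call in the tibialis, 27 fell in both, 25 fell in the tibialis and rose in the soleus, 18 rose in both, and 114 had neither change called. A further 586 genes rose and 294 fell in both muscles with no call for the difference. The plot of the change in each muscle shows these classes together.

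**Figure D1:**
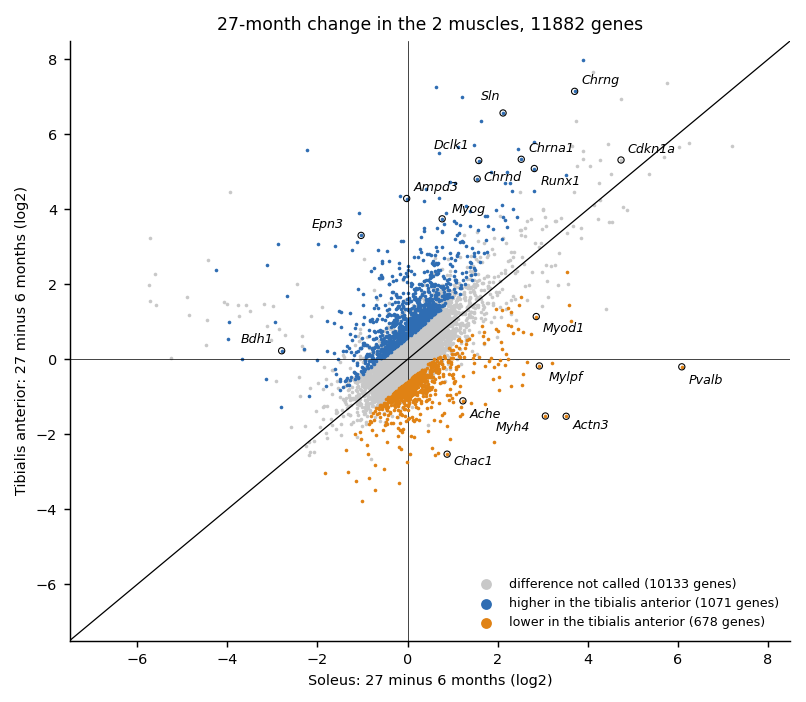
Change from 6 to 27 months in the tibialis anterior (vertical axis, log2) against that in the soleus (horizontal axis, log2) for the 11882 genes tested, with 1 point a gene and the called genes coloured by the sign of the difference. The 1071 positive genes lie above the diagonal of equal change and the 678 negative genes below it.

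The muscles started apart and were closer at 27 months. At 6 months 5075 genes (42.7%) differed, 2274 higher in the tibialis (19.1%) and 2801 higher in the soleus (23.6%), and at 27 months 3772 (31.7%), 1806 (15.2%) and 1966 (16.5%). The SD over genes of the muscle difference was 1.17 at 6 months and 0.858 at 27 months, on the log2 scale. Because the 6-month libraries enter both the starting level and the change, levels were read in other libraries: at 9 months, 795 (76.5%) of the 1039 positive genes that could be tested there were higher in the soleus, against 24.2% of all genes, and 512 (76.0%) of the 674 negative genes were higher in the tibialis, against 17.6% of all genes. At 9 months, 4915 of 11741 genes (41.9%) differed between the muscles, 2064 (17.6%) higher in the tibialis and 2851 (24.3%) higher in the soleus.

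The same difference was computed between 9 and 24 months, ages whose libraries were not used to choose the called genes. There 902 of 11741 genes (7.68%) were called, 641 positive (5.46%) and 261 negative (2.22%). Of the 1039 positive genes tested at these ages, 1008 (97.02%) again had a positive difference and 446 were called positive, with a median of 0.62. Of the 674 negative genes, 637 (94.5%) again had a negative difference and 198 were called negative, with a median of -0.49. None of either group was called in the opposite direction, while 53.5% of all genes tested in both fits had a positive difference between 9 and 24 months.

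Fast fibre genes had the largest share of calls of the lists described here. Of 16 tested, 15 were negative and 0 positive (93.8% called, against 14.7% of all genes). The median was -2.49 against 0.01 over all genes. In the soleus 12 of 16 rose, against 9.27% of all genes, with a median change over the list of 1.66. In the tibialis 8 fell, against 10.3% of all genes, with a median of -0.70. The member without a call was Myh2, the myosin of intermediate oxidative fibres, at -1.31 (95% interval -3.69 to 1.06). As a mean CPM, the soleus level of all 16 at 27 months stayed below that of the 6-month tibialis, from 0.156% of it for Myh4 to 36% for Myl1.

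Myh4 is the myosin heavy chain of the fastest, most glycolytic fibres. Its lowest, median and highest levels in log2 CPM were 2.19, 3.11 and 5.82 in the 6-month soleus, 4.39, 6.65 and 8.34 in the 27-month soleus, 16.25, 16.45 and 16.63 in the 6-month tibialis and 13.59, 14.86 and 16.12 in the 27-month tibialis. The muscles did not overlap at either age, the tibialis ages did not overlap, and the soleus ages overlapped. Myh4 fell in the tibialis (-1.51) and rose in the soleus (3.06), a difference of -4.57 ± 0.65 (SE, n = 12 libraries a group, adjusted p = 1.83e-07) in limma. As a mean CPM, the soleus held 0.0188% of the 6-month tibialis level at 6 months and 0.156% at 27 months, and the tibialis itself held 38.5% at 27 months. Actn3, the alpha-actinin of fast fibre Z discs, behaved alike, with levels of 0.72, 2.74 and 6.46 in the 6-month soleus, 3.90, 6.53 and 8.17 in the 27-month soleus, 13.68, 13.83 and 13.99 in the 6-month tibialis and 10.91, 12.26 and 13.61 in the 27-month tibialis. Its tibialis ages and both pairs of muscles were again apart, with overlap between the ages of the soleus. The changes were -1.52 in the tibialis and 3.52 in the soleus, a difference of -5.04 ± 0.64 (SE, n = 12 libraries a group, adjusted p = 1.10e-08).

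For other fast genes the change was called in the soleus alone. Pvalb encodes parvalbumin, the calcium buffer that speeds relaxation of fast fibres, and had the most negative difference of the named genes. Its levels were -3.19, -1.24 and 1.77 in the 6-month soleus, 0.64, 5.03 and 6.11 in the 27-month soleus, 10.28, 10.50 and 10.61 in the 6-month tibialis and 9.94, 10.27 and 10.63 in the 27-month tibialis log2 CPM. In the tibialis the ages overlapped, and in the soleus 1 old library, number 9 at 0.64, lay in the 6-month range while the other 11 did not. The changes were -0.20 in the tibialis and 6.09 in the soleus, and the difference was -6.29 ± 1.07 (SE, n = 12 libraries a group, adjusted p = 4.98e-06). The 12 soleus libraries held 278 counts of Pvalb in all at 6 months and 15274 at 27 months, and the soleus level rose from 0.0497% to 2.43% of that of the 6-month tibialis. Mylpf, the fast regulatory myosin light chain, ran from 1.51% to 11.2%, with levels of 5.35, 6.85 and 8.03 in the 6-month soleus, 7.14, 9.83 and 10.57 in the 27-month soleus, 12.84, 13.05 and 13.21 in the 6-month tibialis and 12.33, 12.96 and 13.32 in the 27-month tibialis. Ages overlapped in both muscles, and the muscles stayed apart at both ages. Its difference was -3.10 ± 0.45 (SE, n = 12 libraries a group, adjusted p = 2.08e-07), made of -0.18 in the tibialis and 2.93 in the soleus.

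The fast troponins Tnnc2 (-2.99, adjusted p = 1.25e-04), Tnnt3 (-2.97, adjusted p = 0.00676) and Tnni2 (-2.42, adjusted p = 0.0171), which switch the fast thin filament on and off, had negative differences in limma and rose in the soleus, with no call in the tibialis. Tnni2 lost its call with the replicate block (-1.69, adjusted p = 0.0566), in DESeq2 (adjusted p = 0.0532) and in edgeR (adjusted p = 0.0522). Myh1, the myosin of fast fibres next to Myh4 in speed, differed by -3.29 (adjusted p = 5.72e-04), and its soleus level went from 0.22% to 2.02% of the 6-month tibialis. Myl1, the fast essential light chain, was the fast gene least rare in the soleus among those called up there, at 16.9% and 36%, and differed by -1.28 ± 0.13 (SE, adjusted p = 1.86e-11). Atp2a1, the calcium pump of fast fibres, fell in the tibialis (-1.15) and rose in the soleus (0.69), as did Tpm1, a tropomyosin, at -1.03 and 0.99, and Mybpc2, the fast myosin binding protein C, at -1.16 and 1.41. Casq1, which stores calcium in fast fibres, Myoz1, a Z disc protein, and Mylk2, the kinase of the regulatory light chain, fell in the tibialis by 0.70, 1.09 and 2.20 on the log2 scale and were not called in the soleus. The plot of fibre type genes gives the level in every library.

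**Figure D2:**
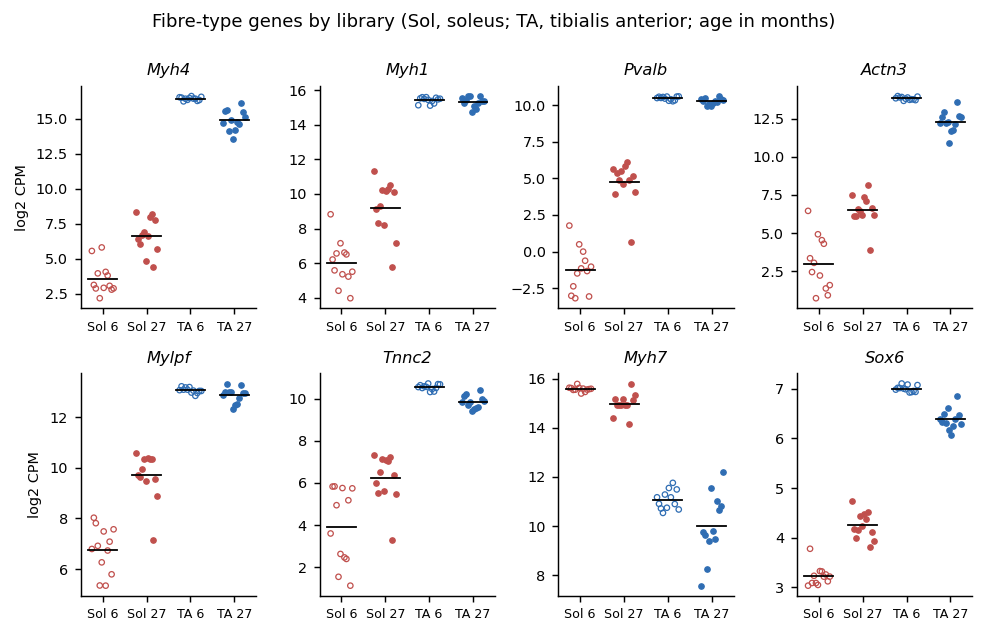
Levels in log2 CPM (vertical axes) of 7 fast fibre or fast-programme genes and of Myh7 in each of the 48 libraries, 1 point a library, by muscle and age, with a bar at the group mean. The old soleus points of Myh4, Pvalb, Actn3 and Mylpf spread upward over several log2 units, and those of the tibialis remain above them.

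Of 15 slow fibre genes tested, 3 (20.0%) were positive, against 9.01% of all genes, and none negative, with a median of 0.08, and under total-count scaling 5 were positive. Myh7 lay at 15.40, 15.58 and 15.79 in the 6-month soleus, 14.16, 14.94 and 15.81 in the 27-month soleus, 10.53, 11.04 and 11.76 in the 6-month tibialis and 7.57, 9.78 and 12.19 in the 27-month tibialis. Its ages overlapped in both muscles, its change was -1.08 in the tibialis and -0.59 in the soleus, and the difference of -0.49 (95% interval -1.47 to 0.49) was not called (adjusted p = 0.454). Other members of the slow sarcomere had no call either: Tnnt1 at -0.05 (interval -0.83 to 0.73), Myl2 at -0.15 (-0.69 to 0.39), Tnnc1 at -0.21 (-0.80 to 0.39) and Tnni1 at 0.51 (0.01 to 1.01). Tnni1 was called in edgeR, with sample quality weights and under total-count scaling. The called members were Casq2 (1.51, adjusted p = 2.23e-06), the calcium store protein of slow and cardiac muscle, Csrp3 (1.75, adjusted p = 7.68e-06), a Z disc protein that responds to stretch, and Ankrd2 (1.59, adjusted p = 0.00437), a stretch-responsive ankyrin repeat protein of slow fibres. Casq2 and Csrp3 rose in the tibialis (1.22 and 2.35), whereas Ankrd2 fell in the soleus (-1.30) with 0.29 in the tibialis.

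Among 24 regulators of fibre type and metabolism, 5 were negative and none positive (20.8% called, against 14.7% of all genes), with a median of -0.03. Under total-count scaling the count was 3 in each direction. Sox6, which represses slow genes in fast fibres, showed a clean separation in every pair of groups: its levels were 3.03, 3.21 and 3.77 in the 6-month soleus, 3.81, 4.20 and 4.74 in the 27-month soleus, 6.93, 6.998 and 7.11 in the 6-month tibialis and 6.07, 6.36 and 6.86 in the 27-month tibialis. It fell in the tibialis (-0.62) and rose in the soleus (1.02), a difference of -1.64 ± 0.11 (SE, n = 12 libraries a group, adjusted p = 8.30e-16). Tbx15 (-0.60, adjusted p = 3.20e-07), a transcription factor of fast fibres, Nfyb (-0.84, adjusted p = 3.73e-11), a CCAAT-binding subunit, and Tead1 (-0.69, adjusted p = 6.89e-09), a factor of muscle and growth genes, were also negative. Tead1 and Tbx15 lost their calls under total-count scaling. Ppargc1a, the coactivator of mitochondrial genes, fell by 0.60 on the log2 scale in the tibialis and had -0.49 in the soleus, with a difference of -0.11 (interval -0.38 to 0.15).

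The muscle acetylcholine receptor is a ring of subunits, alpha (Chrna1), beta (Chrnb1) and delta (Chrnd) with gamma (Chrng) in the fetal receptor or epsilon (Chrne) in the adult one. Since 3 of these 5 genes were called and 2 were not, their promoters are shown side by side, from 250 bases before to 50 after the RefSeq start in build GRCr8, 5′ to 3′ on the gene's strand. Capitals mark E-boxes of the form CANNTG, the letters that myogenic factors such as myogenin and MyoD bind. The positions were chr3:78877304-78877603, reverse strand, for Chrna1, chr9:95310066-95310365, forward strand, for Chrnd, chr9:95325734-95326033, forward strand, for Chrng, chr10:55834105-55834404, reverse strand, for Chrne, and chr10:55015058-55015357, reverse strand, for Chrnb1.
Chrna1: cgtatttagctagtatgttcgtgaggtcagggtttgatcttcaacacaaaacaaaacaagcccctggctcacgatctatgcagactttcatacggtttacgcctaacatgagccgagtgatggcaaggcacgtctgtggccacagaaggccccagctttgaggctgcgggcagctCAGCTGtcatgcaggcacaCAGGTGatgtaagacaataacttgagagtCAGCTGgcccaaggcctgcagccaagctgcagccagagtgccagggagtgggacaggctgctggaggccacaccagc
Chrnd: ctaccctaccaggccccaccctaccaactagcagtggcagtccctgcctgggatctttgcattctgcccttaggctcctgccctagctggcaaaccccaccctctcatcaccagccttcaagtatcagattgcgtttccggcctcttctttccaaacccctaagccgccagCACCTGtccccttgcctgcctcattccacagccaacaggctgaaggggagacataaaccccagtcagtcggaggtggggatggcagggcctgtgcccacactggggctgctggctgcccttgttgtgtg
Chrng: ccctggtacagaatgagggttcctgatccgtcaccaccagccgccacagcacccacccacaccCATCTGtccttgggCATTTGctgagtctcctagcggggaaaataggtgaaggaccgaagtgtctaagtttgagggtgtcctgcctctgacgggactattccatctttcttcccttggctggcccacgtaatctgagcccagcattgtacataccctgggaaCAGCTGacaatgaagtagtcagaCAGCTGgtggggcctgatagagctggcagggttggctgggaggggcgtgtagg
Chrne: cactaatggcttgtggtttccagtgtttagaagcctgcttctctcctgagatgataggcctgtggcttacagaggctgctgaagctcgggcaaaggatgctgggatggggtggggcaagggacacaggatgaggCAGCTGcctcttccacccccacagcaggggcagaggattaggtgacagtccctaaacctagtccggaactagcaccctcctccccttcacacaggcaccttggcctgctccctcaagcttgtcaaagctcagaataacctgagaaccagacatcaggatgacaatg
Chrnb1: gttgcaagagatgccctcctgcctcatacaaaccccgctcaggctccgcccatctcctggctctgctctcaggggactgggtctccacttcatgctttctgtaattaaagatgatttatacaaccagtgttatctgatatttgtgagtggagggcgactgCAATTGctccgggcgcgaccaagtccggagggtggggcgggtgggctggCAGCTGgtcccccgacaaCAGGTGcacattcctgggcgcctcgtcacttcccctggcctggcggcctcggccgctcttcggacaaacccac

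Searched for CANNTG, which reads alike on both strands, the promoters held 3 matches for Chrna1, 1 for Chrnd, 4 for Chrng, 1 for Chrne and 3 for Chrnb1. Of these, 2, 0, 2, 1 and 1 read CAGCTG, a form of CANNTG. Of 33469 rat promoters of this length, 72.1% held CANNTG and 15.1% held CAGCTG. Letters of this kind were thus present in all 5 promoters, those of the called and of the uncalled genes.

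All 5 receptor genes rose in both muscles, against 16.5% of all genes in the tibialis and 9.27% in the soleus. In the tibialis 3 of the 5 rose further (60.0% called, against 14.7% of all genes), with a median difference of 2.81. For Chrna1 the lowest, median and highest levels in log2 CPM were 5.66, 5.88 and 6.32 in the 6-month soleus, 6.03, 8.62 and 9.37 in the 27-month soleus, 3.36, 3.81 and 4.15 in the 6-month tibialis and 7.11, 9.29 and 10.03 in the 27-month tibialis. At 6 months the soleus was the higher muscle with no overlap, at 27 months the muscles overlapped, and in the soleus 1 old library, number 9 at 6.03, fell in the 6-month range while the other 11 did not. The tibialis change of 5.34 and the soleus change of 2.52 differed by 2.81 ± 0.34 (SE, n = 12 libraries a group, adjusted p = 4.83e-09). Chrnd had levels of 5.07, 5.46 and 5.69 in the 6-month soleus, 6.58, 6.92 and 7.46 in the 27-month soleus, 2.57, 2.77 and 2.97 in the 6-month tibialis and 6.15, 7.77 and 8.37 in the 27-month tibialis. The ages did not overlap in either muscle, and the muscles overlapped at 27 months only. Its changes were 4.82 and 1.55 in tibialis and soleus, a difference of 3.27 ± 0.23 (SE, n = 12 libraries a group, adjusted p = 8.53e-16).

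Chrng, the fetal subunit, was near the detection limit in the young tibialis, where the 12 libraries held 89 counts in all and 1 library none, against 14074 at 27 months. In the soleus the sums were 1107 and 16268. Its levels were -0.27, 1.44 and 1.98 in the 6-month soleus, 3.17, 4.98 and 6.17 in the 27-month soleus, -6.04, -1.88 and -1.28 in the 6-month tibialis and 2.79, 5.11 and 6.16 in the 27-month tibialis. The ages were apart in both muscles, and the muscles overlapped at 27 months. The fitted difference of 3.44 ± 1.23 (SE, n = 12 libraries a group, adjusted p = 0.0237) was called. The adult subunit Chrne changed by 1.31 in the tibialis and 0.82 in the soleus, and the difference of 0.49 (interval 0.07 to 0.91, adjusted p = 0.0603) was not called except under total-count scaling. Chrnb1 changed by 1.05 and 0.89, with a difference of 0.16 (interval -0.09 to 0.41, adjusted p = 0.325). Gamma and epsilon, the subunits that exchange for one another, therefore rose together in both muscles.

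In a list of 18 other genes of the neuromuscular junction, 3 were positive and 1 negative (22.2% called, against 14.7% of all genes), with a median of 0.04. Musk, the receptor kinase that gathers receptors under the nerve ending, had levels of 1.71, 1.93 and 2.38 in the 6-month soleus, 2.75, 3.67 and 4.37 in the 27-month soleus, 1.23, 1.75 and 2.04 in the 6-month tibialis and 4.10, 5.57 and 6.25 in the 27-month tibialis. Both muscles rose with no overlap between ages, by 3.81 in the tibialis and 1.71 in the soleus, a difference of 2.10 ± 0.35 (SE, n = 12 libraries a group, adjusted p = 3.77e-06). Ncam1, an adhesion molecule that spreads over denervated fibres, rose by 3.55 and 1.79 (difference 1.76, adjusted p = 5.25e-09). Ache, the esterase that breaks down acetylcholine at the junction, went the other way: it fell in the tibialis (-1.11) and rose in the soleus (1.23), from medians of 6.10 to 5.15 and of 3.41 to 4.71, a difference of -2.34 ± 0.23 (SE, n = 12 libraries a group, adjusted p = 1.31e-11). Its ages were apart in both muscles, and the muscles, apart at 6 months, overlapped at 27.

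Of 12 genes known to answer loss of the nerve, 5 were positive and 1 negative, with a median of 0.998. In each muscle 10 of the 12 rose, with a median change over the list of 4.12 in the tibialis and 2.51 in the soleus. Myog, which encodes myogenin, lay at 5.004, 5.27 and 5.51 in the 6-month soleus, 5.20, 6.03 and 6.55 in the 27-month soleus, 3.11, 3.34 and 3.97 in the 6-month tibialis and 6.47, 7.17 and 7.72 in the 27-month tibialis. The tibialis went from below the soleus with no overlap to a range that overlapped it from above. Myog rose by 3.75 in the tibialis and 0.77 in the soleus, and the difference was 2.98 ± 0.18 (SE, n = 12 libraries a group, adjusted p = 9.00e-18). Its relative Myod1, which encodes MyoD, did the reverse: the rise was 1.14 in the tibialis and 2.86 in the soleus, with a difference of -1.71 ± 0.38 (SE, n = 12 libraries a group, adjusted p = 2.62e-04), and medians moved from 6.71 to 7.96 and from 3.54 to 6.52.

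Runx1, a transcription factor that protects denervated fibres, rose by 5.09 in the tibialis and 2.81 in the soleus (difference 2.28 ± 0.33, adjusted p = 2.33e-07), Gadd45a, a stress gene of denervated muscle, by 4.48 and 2.80 (difference 1.68, adjusted p = 6.95e-05), and Ankrd1, a stretch-induced ankyrin repeat protein, by 4.93 and 3.51 (difference 1.42, adjusted p = 0.0126). Sln encodes sarcolipin, a small peptide that uncouples the sarcoplasmic calcium pump. Its levels were 3.11, 3.52 and 4.11 in the 6-month soleus, 4.51, 5.81 and 6.15 in the 27-month soleus, -4.22, -1.73 and 0.00 in the 6-month tibialis and 3.05, 5.02 and 5.77 in the 27-month tibialis. Nearly absent in the young tibialis (134 counts over 12 libraries), it reached the soleus range at 27 months, and the fitted difference was 4.45 ± 0.75 (SE, n = 12 libraries a group, adjusted p = 4.55e-06). The remaining members had no call in limma. edgeR and DESeq2 each gave 6 positive and 1 negative of the 12. Cdkn1a, the cell cycle inhibitor p21, rose by 5.32 and 4.74 (difference 0.58, interval -0.20 to 1.36), and Hdac4, a deacetylase that relays loss of nerve activity, by 2.63 and 2.23 (difference 0.40, interval -0.04 to 0.84). The plot of nerve-dependent genes shows both the called and the uncalled members.

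**Figure D3:**
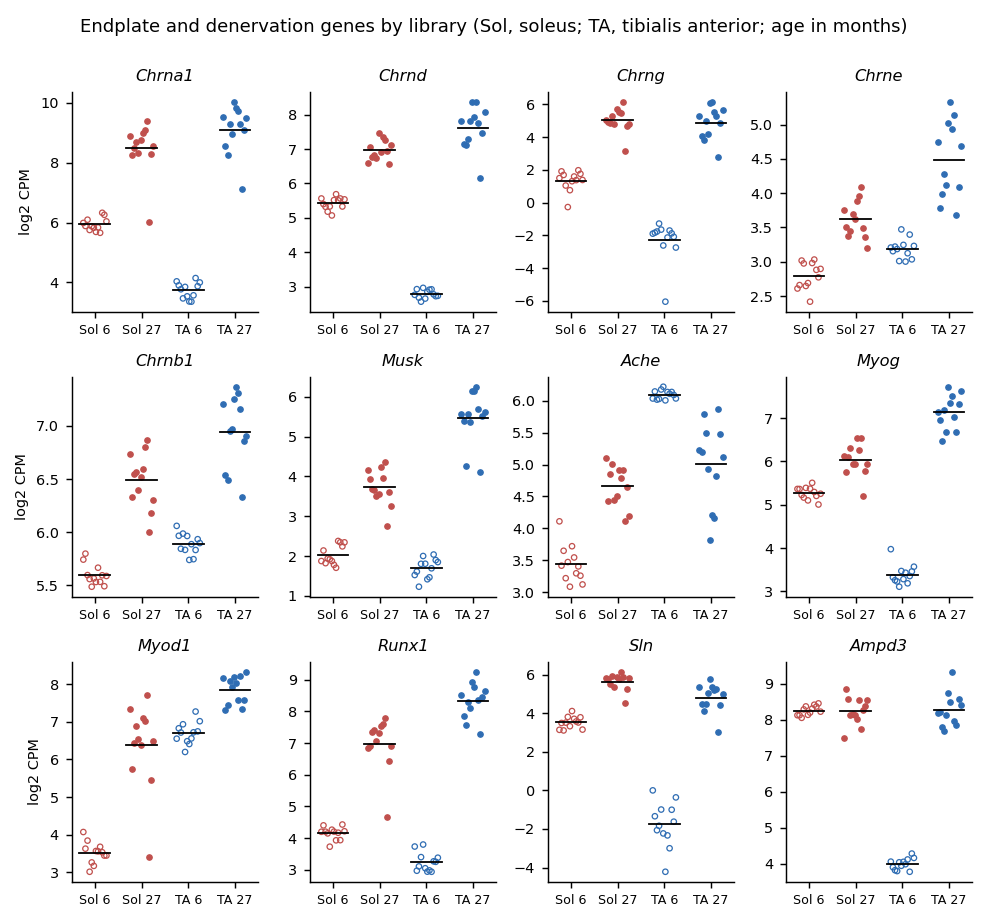
Levels in log2 CPM (vertical axes) of 12 acetylcholine receptor, junction and denervation genes in each of the 48 libraries, 1 point a library, by muscle and age, with a bar at the group mean. Chrna1, Chrnd, Myog, Ampd3 and Sln start lower in the tibialis and reach or pass the soleus range at 27 months, while Ache and Myod1 start higher in the tibialis.

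Sarcomere genes of the embryo and of other muscle types gave 5 positive and 1 negative of 7 (85.7% called, against 14.7% of all genes). Their median was 0.82. Tnnt2, the cardiac and embryonic troponin T, rose by 3.91 in the tibialis and 0.86 in the soleus, from levels of 3.94, 4.71 and 5.58 in the 6-month soleus, 4.54, 5.45 and 6.44 in the 27-month soleus, -1.19, 0.22 and 1.48 in the 6-month tibialis and 1.86, 4.35 and 5.48 in the 27-month tibialis. The tibialis ages were fully apart, the soleus ages overlapped, and the difference was 3.05 ± 0.64 (SE, n = 12 libraries a group, adjusted p = 1.46e-04). Actc1, cardiac actin, rose by 3.16 and 1.21 (difference 1.95, adjusted p = 2.15e-05). The smooth muscle genes Acta2 and Myl9 differed by 0.82 (adjusted p = 4.61e-06) and 0.72 (adjusted p = 5.90e-07). Outside the rule for named genes, and chosen after their values were seen, the embryonic myosin Myh3 was positive (1.34) and the neonatal myosin Myh8 negative (-1.31). As the 1 negative member, Myh8 lost its call in edgeR, in DESeq2, with the replicate block, under total-count scaling, with Bonferroni adjustment and without the libraries rich in Alb.

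The gene with the smallest adjusted p of the 12 with the largest positive difference was Ampd3, the AMP deaminase of red cells and of denervated muscle. Its levels were 8.06, 8.26 and 8.46 in the 6-month soleus, 7.50, 8.21 and 8.85 in the 27-month soleus, 3.78, 4.02 and 4.28 in the 6-month tibialis and 7.69, 8.21 and 9.33 in the 27-month tibialis. All 12 young tibialis libraries lay below every other library, and the old tibialis overlapped the soleus. Ampd3 rose by 4.29 in the tibialis with -0.02 in the soleus, a difference of 4.31 ± 0.18 (SE, n = 12 libraries a group, adjusted p = 1.49e-24). Dclk1, a microtubule-associated kinase, overlapped between the muscles at 6 months and lay apart at 27: its levels were 4.08, 4.43 and 4.67 in the 6-month soleus, 4.93, 5.97 and 6.83 in the 27-month soleus, 3.26, 3.82 and 4.19 in the 6-month tibialis and 7.16, 9.09 and 9.94 in the 27-month tibialis. It rose by 5.30 in the tibialis and by 1.58 in the soleus, a difference of 3.72 ± 0.31 (SE, n = 12 libraries a group, adjusted p = 1.34e-13).

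Gpnmb, a glycoprotein of macrophages and of damaged muscle, rose in the tibialis by 3.51 and had 0.36 in the soleus, and the difference was 3.15 ± 0.25 (SE, adjusted p = 6.49e-14). Rrad, a small GTPase that restrains calcium channels, had 2.63 and -0.42 (difference 3.05, adjusted p = 2.98e-08), and Epn3, an epsin of endocytosis, rose in the tibialis (3.31) and fell in the soleus (-1.03) with a difference of 4.34 (adjusted p = 1.23e-08). Scd1, the desaturase that makes monounsaturated fatty acids, rose in both, by 5.61 and 2.46 (difference 3.15, adjusted p = 2.71e-07). For Bdh1, the enzyme that oxidises the ketone body beta-hydroxybutyrate, the change was called in the soleus: levels were 4.51, 4.98 and 5.23 in the 6-month soleus, 0.40, 2.36 and 4.08 in the 27-month soleus, 0.35, 1.47 and 1.77 in the 6-month tibialis and 0.69, 1.31 and 2.35 in the 27-month tibialis. The soleus ages did not overlap and the tibialis ages did, with changes of -2.80 and 0.23 and a difference of 3.03 ± 0.42 (SE, n = 12 libraries a group, adjusted p = 1.06e-07).

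Outside the fast sarcomere, the largest negative differences belonged to genes of varied roles. Chac1, which degrades glutathione and belongs to the integrated stress response, fell in the tibialis (-2.53) and rose in the soleus (0.88), a difference of -3.41 ± 0.49 (SE, adjusted p = 2.26e-07). Tpx2, a spindle protein, did so too (-1.77 and 0.87, difference -2.64, adjusted p = 1.74e-15), as did Sntb1, a syntrophin of the dystrophin complex (-1.46 and 1.22, difference -2.67, adjusted p = 6.42e-11). Mss51, a muscle gene under myostatin control, fell in the tibialis by 2.37 on the log2 scale with 0.54 in the soleus, whereas Hook1, a linker of vesicles to microtubules, rose in the soleus by 2.65 with -0.08 in the tibialis. Hook1 levels were -0.69, 0.14 and 0.77 in the 6-month soleus, 1.84, 2.83 and 3.18 in the 27-month soleus, 4.96, 5.15 and 5.30 in the 6-month tibialis and 4.32, 5.18 and 5.66 in the 27-month tibialis. The soleus ages were fully apart for Hook1 and the tibialis ages overlapped. Of the 5 called genes with the highest level, Fhl1, a LIM protein of the sarcomere, rose in the tibialis (0.74; soleus -0.18), and Xirp2, an actin-binding repair protein, was at the threshold (-0.69, adjusted p = 0.0494) and lost its call under 9 of 16 settings.

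Energy metabolism differed by pathway. Of 28 genes of glycolysis and glycogen, 16 were negative and 2 positive (64.3% called, against 14.7% of all genes). Their median was -0.74. In the tibialis 23 fell, against 10.3% of all genes, and in the soleus 9, against 5.99%. Under total-count scaling 11 were negative and 3 positive. At 24 months, in the fit of all 7 ages, 4 were negative and 0 positive. Between 9 and 24 months 3 were negative and 2 positive. Ldha, lactate dehydrogenase of glycolytic fibres, fell in the tibialis by 0.88 on the log2 scale and had 0.41 in the soleus (difference -1.29 ± 0.17, adjusted p = 3.04e-08). Its levels were 6.94, 7.23 and 7.62 in the 6-month soleus, 7.27, 7.71 and 7.88 in the 27-month soleus, 11.19, 11.29 and 11.35 in the 6-month tibialis and 9.45, 10.46 and 11.20 in the 27-month tibialis. Ages overlapped in both muscles, and the muscles did not overlap at either age. Pgm1, which links glycogen to glycolysis, differed by -0.84 (adjusted p = 4.04e-08) and Phkb, a subunit of phosphorylase kinase, by -0.71 (adjusted p = 2.67e-07), a call that total-count scaling removed. The branching enzyme of glycogen, Gbe1, was positive (0.89, adjusted p = 2.19e-09) with a fall in the soleus (-0.67) and 0.21 in the tibialis.

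Genes of fatty acid uptake and oxidation gave 4 positive and 1 negative of 27 (18.5% called, near the 14.7% of all genes), with a median of 0.44. In the soleus 12 members fell, against 5.99% of all genes, and in the tibialis 1, against 10.3%. This count rested on the settings: 8 were positive without the libraries numbered 9 and 16 under total-count scaling. Lpl, the lipase that takes up fat from blood lipoproteins, had levels of 10.83, 10.96 and 11.16 in the 6-month soleus, 8.95, 9.56 and 10.61 in the 27-month soleus, 7.74, 8.13 and 8.31 in the 6-month tibialis and 7.96, 8.31 and 8.96 in the 27-month tibialis. Old and young soleus did not overlap, and the tibialis ages overlapped. Its change was -1.37 in the soleus and 0.22 in the tibialis, a difference of 1.60 ± 0.16 (SE, n = 12 libraries a group, adjusted p = 3.96e-11). Fabp3, the fatty acid carrier of oxidative muscle, differed by 1.31 (adjusted p = 8.73e-07), Slc25a20, the mitochondrial carnitine carrier, by 0.77 (adjusted p = 4.64e-08), and Acadl, a dehydrogenase of beta-oxidation, by 0.71 (adjusted p = 8.50e-08).

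None of 33 genes of complex I and none of 39 of complexes II to V were called in limma, edgeR or DESeq2, with 2 and 4 genes at an unadjusted p under 0.05 and medians of 0.07 and 0.05, while the median change was -0.48 in the tibialis and -0.49 in the soleus for complex I, and -0.46 and -0.51 for the others. Total-count scaling called 2 of complexes II to V positive, and leaving out the libraries numbered 9, those rich in Alb or genes at a mean log2 CPM of 1 or less called 1. Of 20 genes of the citric acid cycle, 1 was positive (5% called, against 14.7% of all genes). It was Mdh1, a malate dehydrogenase (0.62, adjusted p = 0.00375 in limma), which fell in the soleus by 1.10 on the log2 scale and had -0.48 in the tibialis. Mitochondrial ribosomal proteins gave 1 positive of 63 (1.59% called), Mrpl45 (0.77, adjusted p = 1.74e-11). The plot of list medians sets the groups side by side.

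**Figure D4:**
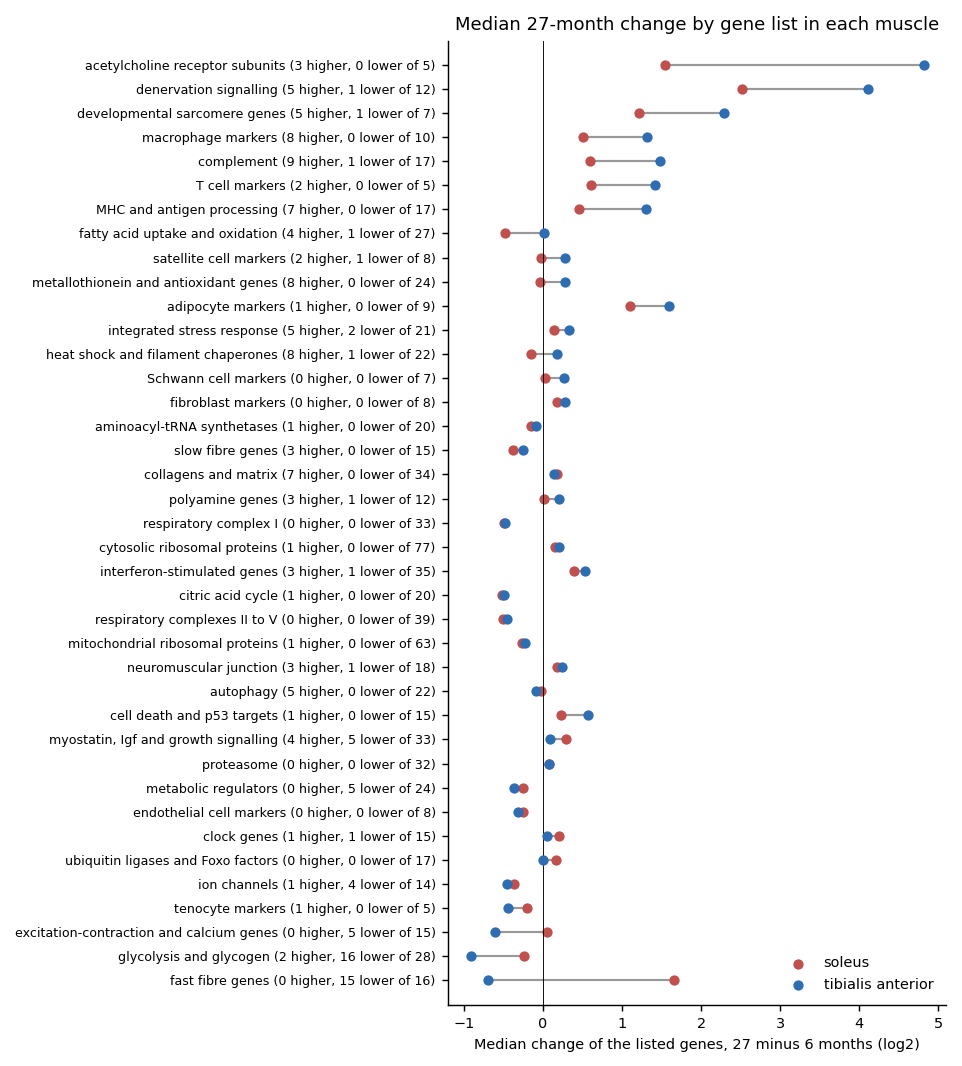
Median change from 6 to 27 months over the tested genes of each list (horizontal axis, log2) for each muscle, 1 row a list. Receptor subunits lie furthest to the right in the tibialis, fast fibre genes lie on opposite sides of 0 in the muscles, and the respiratory complexes lie close together below 0.

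Genes that carry excitation to the calcium stores gave 5 negative and no positive of 15 (33.3% called, against 14.7% of all genes). Their median was -0.44, and under total-count scaling 1 of the 5 remained negative. Cacna1s, the voltage sensor of the T tubule, fell in the tibialis by 0.74 on the log2 scale with -0.13 in the soleus (difference -0.62, adjusted p = 3.17e-07). Its partner subunit Cacng1 differed by -0.94 (adjusted p = 1.96e-12). Of 14 ion channel genes, 1 was positive and 4 negative (35.7% called, against 14.7% of all genes), and under total-count scaling 2 were negative. Kcnma1, the large calcium-activated potassium channel, rose in the tibialis (1.43; soleus -0.22; difference 1.65, adjusted p = 6.17e-16), and Kcnc4, a fast-firing potassium channel, rose in the soleus (1.91; tibialis -0.20; difference -2.11, adjusted p = 1.83e-10). The chloride channel Clcn1, which steadies the resting fibre, fell in the tibialis by 0.86 on the log2 scale (difference -0.67, adjusted p = 1.50e-04) and lost its call under total-count scaling.

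Several chaperones of the sarcomere had a positive difference. Of 22 heat shock and filament chaperone genes, 8 were positive and 1 negative (40.9% called, against 14.7% of all genes). Their median was 0.27. Hspb7, a small heat shock protein of the Z disc, lay at 11.998, 12.21 and 12.53 in the 6-month soleus, 10.23, 12.12 and 12.64 in the 27-month soleus, 8.43, 8.77 and 9.17 in the 6-month tibialis and 9.72, 10.49 and 11.26 in the 27-month tibialis. Its young tibialis stood below all other groups with no overlap, and its difference was 1.97 ± 0.21 (SE, n = 12 libraries a group, adjusted p = 1.25e-10). Cryab, alpha-B crystallin, rose in the tibialis (0.75) and fell in the soleus (-0.75), with a difference of 1.49 (adjusted p = 1.31e-09), and Bag3, the co-chaperone that clears damaged filaments, differed by 0.93 (adjusted p = 8.60e-15). Hspb6, among the called genes of highest level, fell in the soleus (-0.86; tibialis 0.32). Antioxidant and metallothionein genes gave 8 positive and none negative of 24 (33.3% called, against 14.7% of all genes), with a median of 0.38. Among the positive genes were Nqo1, a quinone reductase (1.32, adjusted p = 3.25e-11 in limma), and Cat, catalase (0.95, adjusted p = 1.75e-10).

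None of 32 proteasome genes and none of 17 ubiquitin ligases and Foxo factors were called in limma, edgeR or DESeq2, although 9 and 12 had an unadjusted p under 0.05 and 7 and 11 an adjusted one, with differences from -0.40 to 0.49 over the 17. Foxo1 and Foxo3, transcription factors that drive atrophy genes, differed by -0.34 and -0.31 (adjusted p = 0.0038 and 4.61e-04). Total-count scaling called 1 of the 32 and 2 of the 17 positive. Trim63 and Fbxo32, the ligases known as MuRF1 and atrogin-1, had differences of 0.18 (interval -0.16 to 0.52) and -0.11 (interval -0.45 to 0.23). The lack of calls among the 17 in limma held for the 27-month change only. Between 9 and 24 months 3 of the 17 were called positive in limma, Trim63 (0.70), Fbxo30 (0.70) and Trim55 (0.68), while Fbxo32 (0.24) was not called. In the fit of all 7 ages, 2 of the 17 were positive at 24 months and 0 at 27 months. Of 22 autophagy genes, 5 were positive and none negative (22.7% called, against 14.7% of all genes). Their median was 0.04, with 12 differences above 0 and 10 below. The called genes included the cathepsin Ctsl (0.91, adjusted p = 1.82e-07) and Gabarapl1, which coats autophagosomes (0.70, adjusted p = 3.09e-10). The integrated stress response gave 5 positive and 2 negative of 21 (33.3% called, against 14.7% of all genes). Chac1 was the most negative. Atf5, a transcription factor of mitochondrial stress, was positive (0.73, adjusted p = 3.21e-08 in limma) through a soleus change of -0.67. Of 12 polyamine genes, Sat1, which breaks polyamines down, rose in both muscles by 2.57 and 0.68 (difference 1.89, adjusted p = 1.64e-13), Odc1, which makes them, fell in the soleus with 0.43 in the tibialis (difference 1.43, adjusted p = 1.07e-08), and Smox, an oxidase of spermine, was negative (-0.85, adjusted p = 4.84e-05). Cytosolic ribosomal proteins gave 1 positive of 77 (1.30% called), Rpl3 (0.69, adjusted p = 1.88e-05 in limma). The tRNA synthetases gave 1 positive of 20 (5% called), Farsb (1.31, adjusted p = 6.61e-10).

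Complement and antigen presentation were called more often than the 14.7% of all genes. Complement gave 9 positive and 1 negative of 17 (58.8% called, median 0.66) and antigen presentation 7 positive of 17 (41.2% called, median 0.60). B2m, the light chain of class I molecules, lay at 8.86, 9.15 and 9.29 in the 6-month soleus, 9.40, 9.85 and 10.06 in the 27-month soleus, 7.43, 7.71 and 8.01 in the 6-month tibialis and 9.19, 10.11 and 10.81 in the 27-month tibialis. It rose in both muscles with no overlap between ages, by 2.38 in the tibialis and 0.68 in the soleus, and the difference was 1.70 ± 0.14 (SE, n = 12 libraries a group, adjusted p = 2.37e-13). The C1q chains C1qa, C1qb and C1qc, which start the classical pathway, differed by 0.93, 1.06 and 0.89 (adjusted p = 1.08e-05, 8.06e-06 and 6.46e-05), and C3, the central component, by 3.57 with a wide interval of 1.04 to 6.11 (adjusted p = 0.0215). Interferon-stimulated genes, with 3 positive and 1 negative of 35 (11.4% called; 5 positive under total-count scaling), and collagens and other matrix genes, with 7 positive of 34 (20.6%; 11 under total-count scaling), were closer to the share over all genes. Bgn, the proteoglycan biglycan (1.20, adjusted p = 2.14e-07).

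Macrophage markers moved with these groups. Of 10 tested, 8 were positive (80.0% called, against 14.7% of all genes). The summed level of the 10 was 229.5 to 445 CPM in the 6-month soleus and 361 to 510.4 in the 27-month soleus. In the tibialis it was 70.2 to 119 at 6 months and 133 to 283 at 27 months. None of the 10 was at 0 in all libraries of a group. The old tibialis thus rose above the young one with no overlap and stayed below the old soleus. Lyz2, lysozyme, differed by 1.11 (adjusted p = 1.80e-06), Csf1r, the receptor that keeps macrophages alive, by 0.76 (adjusted p = 2.18e-05), and Cd68, a lysosomal protein of macrophages, by 0.93 (adjusted p = 2.76e-05). T cell markers gave 2 positive of 5 (40.0% called, against 14.7% of all genes). The sum of the T cell markers was 13.5 to 23.5, 17.2 to 34.3, 4.4 to 6.53 and 7.79 to 18 CPM in the same order. The part of these cells in the immune and complement results was not tested. Between 9 and 24 months none of the 10 macrophage markers was called for the difference in limma, with 2 at an unadjusted p under 0.05, and 2 complement genes were positive and 1 negative.

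Markers of other cells gave few calls. Schwann cell, endothelial, fibroblast and red blood cell markers had no call of 7, 8, 8 and 4 in limma, where 2, 3, 3 and 0 had an unadjusted p under 0.05. edgeR and DESeq2 called 1 of the fibroblast markers and none of the other 3 lists, and total-count scaling called 2 fibroblast, 1 endothelial and 1 Schwann cell marker. Over the 13 settings with the same thresholds, at most 2 fibroblast, 1 endothelial, 1 Schwann cell and 0 red blood cell markers were called, 1 of each of the first 3 lists without the libraries rich in Alb. The 1 B cell marker tested was called in DESeq2 and without the libraries rich in Alb. Adipocyte markers gave 1 positive of 9 (11.1% called, against 14.7% of all genes), Thrsp, which promotes lipid synthesis (1.42, adjusted p = 3.27e-04 in limma). Tenocyte markers gave 1 positive of 5 (20.0% called), Scx (0.88, adjusted p = 2.16e-05). Satellite cell markers gave 2 positive and 1 negative of 8 (37.5% called, against 14.7% of all genes). The positive genes in limma were Myf5 (1.67, adjusted p = 1.27e-04) and Vcam1 (0.72, adjusted p = 9.43e-04). The negative gene was Cdh15 (-1.36, adjusted p = 2.55e-11). Under total-count scaling or without the libraries rich in Alb, 4 of the satellite cell markers were positive. Liver markers, of which 5 were tested, fell in the soleus in all 5 cases, with no call for the difference in limma, where 3 had an unadjusted p under 0.05, but 3 in edgeR and 5 in DESeq2. Their sum was 6.34 to 1575 CPM in the 6-month soleus, 0.897 to 2129.7 in the 27-month soleus, 0.0885 to 0.371 in the 6-month tibialis and 0.131 to 425 in the 27-month tibialis.

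Growth signals were split, with 4 positive and 5 negative of 33 (27.3% called, against 14.7% of all genes). Gdf11, a relative of myostatin, rose in the tibialis (1.01) and fell in the soleus (-0.77), a difference of 1.78 ± 0.16 (SE, adjusted p = 8.05e-13), while its type I receptor gene Acvr1b fell in the tibialis by 0.92 on the log2 scale with 0.15 in the soleus (difference -1.07, adjusted p = 3.17e-11). Ghr, the growth hormone receptor, differed by -1.03 (adjusted p = 2.01e-07) and Tgfb2, a transforming growth factor, by 1.08 (adjusted p = 6.12e-07). Of 15 clock genes, 1 was positive and 1 negative (13.3% called, near the 14.7% of all genes). The negative gene was Nfil3, a repressor of the clock's output (-1.64, adjusted p = 3.46e-04). Of 15 cell death and p53 target genes, 1 was positive (6.67%), with 2 negative as well once the libraries rich in Alb were left out.

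The ages between showed when the changes of the muscles came to differ. In a fit of all 7 ages, which share their 6-month libraries, the change differed for 0 of 12409 genes at 9 months in limma, where 717 had an unadjusted p under 0.05, edgeR called 1 and DESeq2 83. It differed for 1 gene at 12 months (0.00806%), 102 at 18 months (0.822%), 207 at 21 months (1.67%) and 944 at 24 months (7.61%). At 18 months 67 (0.540%) were positive and 35 (0.282%) negative, at 21 months 167 (1.35%) and 40 (0.322%), and at 24 months 684 (5.51%) and 260 (2.10%). The gene called at 12 months was Npr3, the clearance receptor of natriuretic peptides (1.03). Among the named genes, Myog, Chrna1, Runx1, Ampd3, Dclk1 and Gpnmb were called from 18 months, Chrnd and Musk from 21 months, and Sln and Ache from 24 months. Of the fast fibre genes none was called through 21 months in limma, where 5 of 16 had an unadjusted p under 0.05 at that age, 7 of 16 were negative at 24 months and 15 at 27 months, with Myh4 called at 27 months only.

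Levels were followed over the ages. The mean of Ampd3 in the tibialis was 4.14 ± 0.37 (SD, n = 12) log2 CPM at 12 months, 5.76 ± 0.76 at 18 and 8.003 ± 0.49 at 24 months, while the soleus stayed between 8.18 and 8.37 at all 7 ages. Myog in the tibialis was 3.19 ± 0.24 at 12, 4.77 ± 0.71 at 18 and 6.57 ± 0.63 at 24 months, against 5.22 ± 0.17, 5.29 ± 0.18 and 5.43 ± 0.43 in the soleus. For Chrna1 the difference between muscles in the change was 1.53 at 18, 1.93 at 21 and 3.17 at 24 months, and its soleus mean went from 6.94 ± 1.22 at 24 to 8.41 ± 0.85 at 27 months. Fast genes moved late in the soleus: Mylpf was 6.21 ± 0.44 at 18, 7.91 ± 1.16 at 24 and 9.64 ± 0.95 at 27 months, with 12.97 ± 0.27 and 12.82 ± 0.31 in the tibialis at 24 and 27 months. Myh4 in the soleus was 3.94 ± 0.85 at 24 and 6.61 ± 1.29 at 27 months, and in the tibialis 15.76 ± 0.81 and 14.87 ± 0.72.

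**Figure D5:**
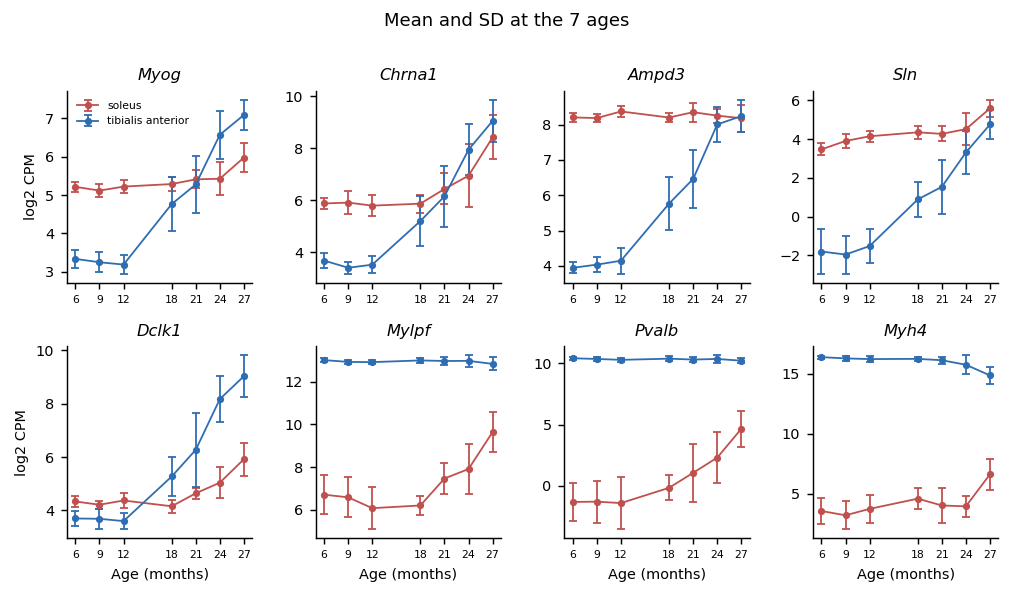
Mean level in log2 CPM with SD (vertical axes) of 8 genes against age in months (horizontal axis) in the soleus and the tibialis anterior, 12 or 13 libraries a point. Myog, Chrna1, Ampd3, Sln and Dclk1 rise in the tibialis from 18 months, and Mylpf, Pvalb and Myh4 rise in the soleus mainly at 24 to 27 months.

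The other muscles of the series give a scale for these changes. From 6 to 27 months the gastrocnemius, a calf muscle of mostly fast fibres, rose by 4.80 for Chrna1, 2.54 for Myog, 2.67 for Ampd3, 4.44 for Dclk1 and 5.50 for Sln. The diaphragm, which works at every breath, rose by 1.33, 1.09, 1.02 and 1.12 for Chrna1, Myog, Ampd3 and Sln, and had 0.56 for Dclk1, which was not called. For Myh4 the change was -1.28 in the gastrocnemius and 1.40 in the diaphragm, and for Myod1 it was 1.44 and 0.47, the last not called. Differences between these muscles and the soleus or tibialis were not tested.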

How the data were processed

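Skeletal muscle RNA was measured by bulk RNA sequencing in male Sprague Dawley rats. The authors extracted total RNA from tissue kept in RNAlater, removed ribosomal RNA, made strand-specific paired-end libraries and obtained raw counts per gene with the ArrayStudio pipeline, with the rat B6.0 genome and their own RefSeq-based gene model; versions were not given in the sources used here. Counts were deposited with no normalization, on 17870 lines a library.

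Lines of 1 symbol were summed (494 symbols were on more than 1 line), giving 17315 symbols. Genes were kept with filterByExpr (minimum count 10, minimum total count 15), scaled by trimmed mean of M values in edgeR 4.0.16 and fitted with limma-voom (limma 3.58.1, R 4.3.3) on 4 group means over 48 libraries. The contrast was the tibialis change minus the soleus change, two-sided, with Benjamini-Hochberg adjustment over all genes tested, and calls needed an adjusted p under 0.05 and over 1.5-fold; the study's methods name limma and 1.5-fold with a Bonferroni adjustment, which served as an alternative. Levels are in log2 CPM with a prior count of 0.5. The script was tested on simulated data, and no 2 libraries were identical. Totals of 21353396 to 66121880 counts limit precision mainly for genes at few counts.

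The members and gene lists were chosen with earlier results of these data known, so list counts are descriptions. Named genes are, among called genes with mean log2 CPM over 2 on 1 line, the 12 with the largest difference in each direction, the 5 called genes of highest level, the 4 of largest difference in each direction with opposite calls, and in each list the 4 members of smallest adjusted p, with whole lists for receptor subunits, fibre types, denervation, regulators and ubiquitin ligases. Of the genes this rule named, 2 are not reported here. Of the list entries, 89 had symbols that were not matched in the files; older symbols were not searched, and respiratory complexes, tRNA synthetases and matrix lists lost the most. Promoters come from RefSeq, GRCr8, a later build than the counts' gene model. Alternatives were edgeR's quasi-likelihood test, DESeq2 1.42.0, other scalings, filters, thresholds and library sets, with 2 library sets added after seeing the data.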

Additional observations from a re-analysis of the deposited data

Results flagged for a closer look

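The difference between muscles in the 27-month change was itself tested, and 1749 genes passed, 1071 positive and 678 negative. In 25 of them a rise in the tibialis and a fall in the soleus were both called, and in another 25 a fall in the tibialis and a rise in the soleus. The 4 most negative differences among these were -5.04 for Actn3, -4.57 for Myh4, -4.14 for Cib2, a calcium-binding protein, and -3.41 for Chac1, and Epn3 had 4.34, after the 3 positive genes given next.

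The 3 largest positive differences with opposite calls were 7.81 for Hnf4a, a liver transcription factor, 5.97 for Slc27a2, a fatty acid transporter of liver and kidney, and 5.63 for Cyp4f1, a cytochrome of fatty acid metabolism, and all rest on few counts. Summed over the 12 libraries of a group, Hnf4a had 349 counts in the 6-month soleus, 268 in the 27-month soleus, 1 in the 6-month tibialis and 383 in the 27-month tibialis, and the ratio of the last to the one before, per count sequenced, was 500.0 (exact Poisson 95% interval 89.2 to 19800.5, counting error only). Slc27a2 had 914, 502, 3 and 122 counts in the same order, with a ratio of 53.1 (17.7 to 261), and Cyp4f1 had 601, 216, 18 and 148. The fitted soleus changes, on the log2 level of each library, were -2.24 for Hnf4a, -2.88 for Slc27a2 and -3.12 for Cyp4f1. The pooled soleus counts of all 3 genes fell by less than these fitted changes, most plainly for Hnf4a, and the reason was not tested. Transcripts of the liver also varied between soleus libraries, with summed liver markers of 6.34 to 1575 CPM at 6 months, and their part in these 3 genes was not tested.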

How the results depend on the processing

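Of 1979 values computed for 124 called named genes under 16 settings, 1880 remained called, 99 were lost and none turned direction. Of the losses, 45 came at 2-fold and 31 with Bonferroni adjustment, while the setting with no fold threshold cannot remove a call. Many of these genes were chosen for a large difference or a small adjusted p in the same libraries. The tally is therefore a description and not a test of stability. The difference between muscles in the 27-month change gave 744 genes with Bonferroni adjustment, 737 at 2-fold and 4514 with no fold threshold, 1821 in edgeR and 1885 in DESeq2. The 27-month change in the tibialis anterior gave 1485 genes at 2-fold and 8028 with no fold threshold, and the 27-month change in the soleus 729 and 6478, with 1073 under Bonferroni and 1088 at a mean log2 CPM over 1, where fewer genes were tested. The muscle difference at 6 months gave 2755 and 9228, and the muscle difference at 27 months 1704 and 8547. The difference between muscles in the change at 9, 12, 18, 21 and 24 months summed to 1254 calls, and to 1911 in DESeq2, 399 under Bonferroni, 619 at 2-fold and 4110 with no fold threshold. Total-count scaling moved the positive share from 61.6% to 89.6% for the 27-month change in the tibialis anterior, from 60.7% to 79.0% for the 27-month change in the soleus, from 44.8% to 18.0% for the muscle difference at 6 months and from 47.9% to 25.8% for the muscle difference at 27 months; the cause was not tested.

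The labels number libraries from 0 to 11 in each group without naming animals. A replicate block on these numbers gave 1876 genes for the difference between muscles in the 27-month change (1195 positive), 5143 for the muscle difference at 6 months and 3770 for the muscle difference at 27 months. Deviations of same-numbered libraries correlated at 0.06 to 0.28 at 6 months and -0.26 to 0.52 at 27 months. The correlation was over 0.1 for 11 of 12 numbers at 6 months and 10 of 12 at 27 months. At 6 months 10 of 12 soleus libraries correlated best with their own number, and at 27 months 6 of 12. Whether equal numbers mark 1 animal was not settled. The main fit took the libraries as independent and left out any such pairing. Depth limits genes near 0 in the young tibialis, such as Chrng and Sln. With 12 libraries a group, an uncalled gene may still differ.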
